A study of Mus musculus with 15 samples.

Results

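The D cyclins Ccnd1, Ccnd2 and Ccnd3, their kinase partners Cdk4 and Cdk6, the CDK inhibitors Cdkn1a (p21), Cdkn1b (p27) and Cdkn2c (p18), and the retinoblastoma gene Rb1 were followed in mouse neural stem cells before and after the start of differentiation. The members were chosen by gene symbol and not by a cut on measured values, though earlier results of these data were known. They are 9 of the 12393 genes named by 1 probe set or more. Of the 20380 probe sets that carry a single gene symbol they hold 21. A filter on low values (a mean over all arrays above 0.51 on the log2 scale) left 8 of the 9 genes and 19 of their 21 probe sets for testing. Cdk6 did not pass it. Gene positions are from RefSeq (GRCm38.p6). Unless another is named, a gene is given by the probe set of highest mean level.

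Total RNA was hybridised to an Affymetrix mouse expression array, 1 array per sample, in 3 groups of 5. All samples were neurosphere-derived stem cells of the subventricular zone, a neurogenic region of the adult brain, from female C57Bl6/J mice aged 6 months, used at passages 5 to 7. The undifferentiated group was grown with the growth factors bFGF and EGF. The 12 h and 24 h groups were harvested at those times after plating on poly-D-lysine in 5% serum without the growth factors, so growth factor loss, serum and attachment came together and cannot be told apart. The labels give no genetic change. They do not state separate cultures or animals for the 5 samples of a group, so the p-values rest on the spread between arrays, and that spread may be technical.

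D cyclins are made in response to growth factors and bind CDK4 or CDK6, and the active kinases phosphorylate the retinoblastoma protein. Phosphorylation releases E2F factors, which switch on cyclin E, cyclin A and the genes of DNA replication. Inhibitors of the INK4 family, such as p18, block CDK4 and CDK6, while p21 and p27 bind cyclin-CDK complexes more widely. In neural progenitors cyclin D2 and p27 are well known for their roles in cell number and cell cycle exit.

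Several features of the arrays bear on every value below. The code in a sample's title differed from the code of its array file in 13 of 15 samples, and 8 samples would change group if the file codes were followed. Groups here follow the titles. With groups from the file codes, 0 of 12556 probe sets were called in each of the 3 comparisons by limma, with 131, 191 and 32 at an unadjusted p under 0.05. Title codes end in 3 suffixes, called A, B and C here, whose meaning the labels do not give. Deviations from the group mean were alike in arrays that share a suffix (median correlation between arrays of different groups 0.36 over 25 pairs, against -0.17 over 50 pairs of unlike suffix). The 4 arrays of suffix C also had the lowest medians, 0.285 to 0.345 on the deposited log10 scale against 0.397 to 0.451 in the others. The 12 h replicates 3 and 4, both of suffix B, were the closest pair of all arrays (SD of their log2 differences 0.147, next 0.236). The 3'/5' signal ratio of beta-actin, a measure of RNA quality and labelling, was 1.95 ± 0.238 (SD, n = 5) in undifferentiated cells, 2.36 ± 0.148 at 12 h and 2.78 ± 0.365 at 24 h (exact permutation tests against undifferentiated cells, two-sided, adjusted p = 0.0476 for both times). The same ratio of Gapdh was 1.19 ± 0.207, 1.29 ± 0.077 and 1.34 ± 0.079 (same tests, adjusted p = 0.341 at 12 h and 0.226 at 24 h). The actin ratio was 1.63 to 2.22 in undifferentiated arrays and 2.23 to 3.21 at 24 h, without overlap. A fit with the ratio as a covariate therefore cannot tell ratio and group apart at 24 h. The loss of a call in it does not show that a change was lost. For Ccnd1 at 24 h the log2 change was -2.74 without the covariate and -2.98 with it, and its standard error went from 0.60 to 1.07. The part of the actin ratio in the results was not tested beyond this fit. In this fit 0 members were called. Of all 12556 probe sets it called 133 at 12 h, 9 at 24 h and 0 between the times.

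The labelled cell type was checked against marker lists. All 8 neural stem markers were above the filter; at 24 h Nes (-2.05), Egfr (-1.08) and Hes1 (-1.72) fell on the log2 scale, while Sox2 (1.03), Msi1 (1.31) and Prom1 (1.03) rose. Their summed linear level ranged from 1421 to 3106 in undifferentiated cells, 1728 to 3592 at 12 h and 1892 to 5288 at 24 h. Of the microglial and endothelial markers, 0 of 6 and 0 of 5 were above the filter. Of 6 pericyte and fibroblast markers 1 was, the receptor gene Pdgfrb, which rose at 24 h (1.97) and also between 12 h and 24 h (1.29). The summed level of the 6 was low, at 4.53 to 5.41 in undifferentiated cells, 4.89 to 5.68 at 12 h and 5.97 to 8.05 at 24 h. The summed linear level of 7 astrocyte markers ranged from 466 to 949 in undifferentiated cells, 794 to 2095 at 12 h and 1202 to 2879 at 24 h, and 5 of the 7 rose at 24 h. That of 7 oligodendrocyte markers ranged from 186 to 371, from 216 to 1760 and from 612 to 2413, and 6 of the 7 rose at 24 h. Of 6 neuronal markers, 4 were tested and 2 rose at 24 h, and both tested ependymal markers, of 3 on the array, rose. Beside these counts, 12% of all tested genes were called higher at 24 h and 18.6% lower. The part of a changed cell mixture in the member results was not tested, and in these bulk samples fewer cells of a type and less RNA per cell cannot be told apart.

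At 24 h 5 of the 8 tested members had changed: Ccnd1, Ccnd2 and Cdkn1a fell, and Cdkn1b and Rb1 rose (limma, adjusted p under 0.05 over all 12556 tested probe sets). Of all tested genes 30.6% were called in that comparison, 18.6% lower and 12% higher, and of all tested probe sets 27.9%. By gene, 4 of the 8 members separated the groups completely. Counted by probe set, 14 of the members' 19 were called and 13 separated the groups completely, against 22.5% of all probe sets that did so. Both counts include all 3 probe sets of Ccnd1 and all 7 of Ccnd2, and probe sets of 1 gene are not independent. At 12 h 1 of 8 members, Cdkn1a, was called, against 6.78% of all genes (3.86% lower) and 5.98% of all probe sets. An unadjusted p under 0.05 was found for 9 of the members' 19 probe sets at 12 h and for 23.5% of all probe sets. The median change of the 8 tested members was -0.25 at 12 h and -0.33 at 24 h on the log2 scale, beside 0.0045 and -0.060 for all tested genes. Both times were compared with the same undifferentiated arrays.

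**Figure D1:**
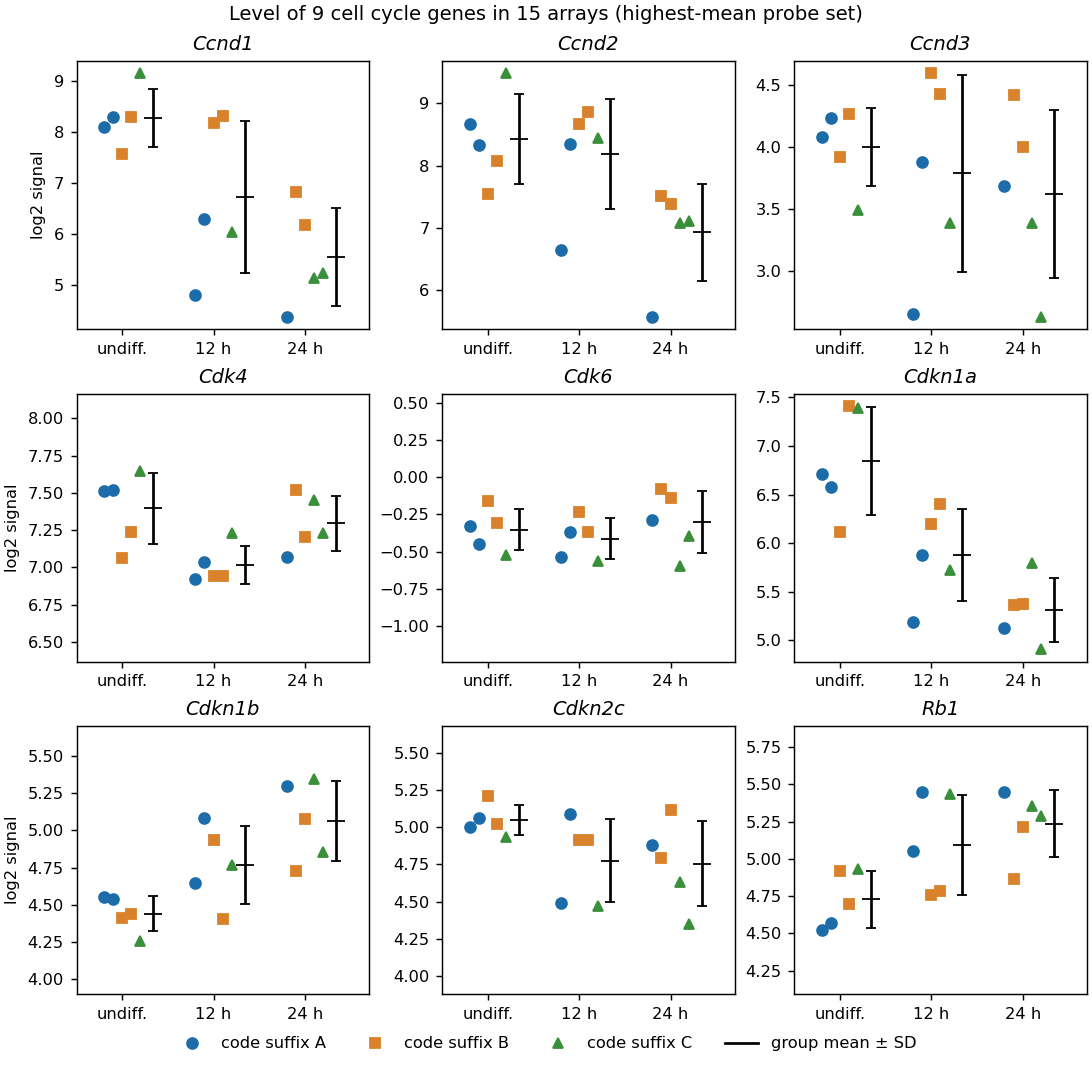
Level of each of the 9 genes in the 15 arrays (vertical axis, log2 signal of the highest-mean probe set, range differing between panels), by group along the horizontal axis; symbols give the title code suffix and black bars the group mean ± SD (n = 5). Ccnd1, Ccnd2 and Cdkn1a lie lower in every 24 h array than in any undifferentiated array, Cdkn1b lies higher in every 24 h array, and Cdk6 stays between -0.60 and -0.08.

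Ccnd1 (chr7:144929931-144939831, probe set 1417420_at), the cyclin D gene best known as a target of growth factor signalling, fell most among the members. Undifferentiated arrays had log2 levels of 8.11, 8.30, 7.57, 8.30 and 9.16. At 12 h the levels were 4.81, 6.29, 8.17, 8.31 and 6.03, and at 24 h they were 4.37, 6.83, 6.18, 5.13 and 5.23. Every 24 h array was below every undifferentiated array, while at 12 h replicates 3 and 4 lay within the undifferentiated range and the other 3 lay far below it. Ccnd1 was 6.67-fold lower at 24 h, a log2 change of -2.74 ± 0.60 (limma, adjusted p = 0.00411). For every change of a single gene or probe set, ± is the standard error of the limma fit. At 12 h the change was -1.56 ± 0.60 (adjusted p = 0.126). Its other 2 probe sets changed by -3.69 ± 0.75 and -3.52 ± 0.54 at 24 h (adjusted p = 0.00279 and 0.000549) and were not called at 12 h.

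For Ccnd1 the suffixes gave different 12 h values. Within suffix A the 12 h change was -2.65, within B, which holds replicates 3 and 4, it was 0.31, and within C, with 1 array a group, it was -3.13. With the suffix as a block the 12 h change of -1.56 was called (adjusted p = 0.0375), and so it was in a fit that treats consecutive title codes as random blocks (adjusted p = 0.0485), without 12 h replicate 4 (-1.96, adjusted p = 0.0491) and without replicates 3 and 4 (-2.58 ± 0.50, adjusted p = 0.00325). With the same code runs as a fixed block it was not called (adjusted p = 0.0713). At 24 h the values within A, B and C were -3.83, -1.43 and -3.98. With suffix C (4 arrays) left out, the 24 h change was -2.28 and was not called (adjusted p = 0.0743), nor was it with the actin ratio as a covariate (-2.98, adjusted p = 0.132).

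Ccnd2 (chr6:127125162-127152188, probe set 1416122_at), which encodes the D cyclin typical of dividing neural progenitors, was lower at 24 h. Its 12 h mean was close to the undifferentiated level, but the suffixes went opposite ways. The 12 h change was -1.01 within suffix A, 0.95 within B, which holds 12 h replicates 3 and 4, and -1.04 within C, with 1 array a group. Its other probe sets had the same signs. Log2 levels were 8.67, 8.33, 7.55, 8.07 and 9.48 in undifferentiated cells. They were 6.65, 8.34, 8.66, 8.85 and 8.44 at 12 h and 5.57, 7.51, 7.38, 7.08 and 7.11 at 24 h. The 24 h arrays were all below the lowest undifferentiated array, replicate 2 by a narrow margin, whereas 4 of the 5 arrays at 12 h were within the undifferentiated range and replicate 1 was below it. Ccnd2 was 2.81-fold lower at 24 h (-1.49 ± 0.45, adjusted p = 0.0217) and differed by -0.23 ± 0.45 at 12 h (95% interval -1.18 to 0.72, adjusted p = 0.808). All 7 of its probe sets were called and had separate groups at 24 h, with changes from -0.91 ± 0.23 to -2.33 ± 0.45, and 0 of 7 were called at 12 h, where changes ran from -0.18 to -0.58.

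The 24 h change of Ccnd2 rested unevenly on the arrays. In its other probe sets the change ran from -0.85 to -3.10 within suffix A, from -0.62 to -1.13 within B and from -1.01 to -3.23 within C. For the highest-mean probe set it was -2.92 within suffix A, -0.37 within B and -2.38 within C. It missed the threshold without undifferentiated replicate 5 (-1.23, adjusted p = 0.0547), without 24 h replicate 1 (-1.15, adjusted p = 0.0561), without suffix C (-1.33, adjusted p = 0.129), after median centring of the arrays (-1.34, adjusted p = 0.0506) and with the actin ratio as a covariate (-2.43, adjusted p = 0.0979). With the suffix as a block it was called.

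Ccnd3 (chr17:47505051-47599689, probe set 1415907_at), the D cyclin expressed most widely across tissues, did not pass the test at either time. Log2 levels were 4.08, 4.23, 3.92, 4.26 and 3.49 in undifferentiated cells, 2.65, 3.88, 4.59, 4.42 and 3.38 at 12 h and 3.68, 4.42, 3.99, 3.38 and 2.63 at 24 h. The 3 groups overlapped, and the spread widened from an SD of 0.31 in undifferentiated cells to 0.79 and 0.67. The change was -0.21 ± 0.35 at 12 h (95% interval -0.96 to 0.54, adjusted p = 0.778) and -0.37 ± 0.35 at 24 h (95% interval -1.13 to 0.38, adjusted p = 0.457). The 24 h interval does not reach the change of Ccnd1.

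The difference between the highest-mean probe sets of 2 genes within each array shows whether these probe sets changed by unequal amounts. A scaling of the whole array cancels in it, but differences in response between probe sets do not. At 24 h the changes of the Ccnd2 probe sets alone ran from -0.91 to -2.33. The size of a difference between 2 genes therefore depends on the probe sets used. For changes of these differences, ± is the standard error from the variances of the 2 groups compared, not from limma. The Ccnd1 value minus the Ccnd2 value was -0.56, -0.03, 0.02, 0.23 and -0.32 in undifferentiated arrays and -1.20, -0.68, -1.20, -1.95 and -1.88 at 24 h. The groups did not overlap, and the change of Ccnd1 minus that of Ccnd2 was -1.25 ± 0.27 (exact permutation test over 252 arrangements, two-sided, p = 0.00794, the smallest it can give; adjusted p = 0.0397 over 15 such tests). At 12 h the difference of changes was -1.33 ± 0.42 (exact permutation test, p = 0.0238, adjusted p = 0.0510). The gap between Ccnd1 and Ccnd2 at 24 h was 0.08 ± 0.46 from that at 12 h (exact permutation test, adjusted p = 0.976).

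Ccnd1 minus Ccnd3 was 3.65 to 5.67 in undifferentiated arrays, 2.16 to 3.89 at 12 h and 0.69 to 2.60 at 24 h. The change was -1.35 ± 0.49 at 12 h and -2.36 ± 0.49 at 24 h (exact permutation tests, adjusted p = 0.0397 for both), with groups that overlapped at 12 h and not at 24 h. Ccnd2 minus Ccnd3 changed by -0.02 ± 0.46 at 12 h and -1.12 ± 0.60 at 24 h (exact permutation tests, adjusted p = 0.976 and 0.143). Cdk4 minus Cdk6 changed by -0.32 ± 0.20 and -0.15 ± 0.21 (exact permutation tests, adjusted p = 0.195 and 0.559). Cdk6 lay below the filter, so this pair does not show whether the kinase genes changed unequally.

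The opposed pair was Cdkn1a minus Cdkn1b. It was 2.15, 2.04, 1.70, 2.97 and 3.13 in undifferentiated arrays, 0.54, 0.79, 1.26, 2.0 and 0.95 at 12 h and -0.17, 0.64, 0.29, 0.45 and 0.05 at 24 h. The 24 h arrays lay below all undifferentiated arrays, and the 12 h arrays lay in between with overlap on both sides. The changes were -1.29 ± 0.38 at 12 h, -2.15 ± 0.31 at 24 h and -0.86 ± 0.29 from 12 h to 24 h (exact permutation tests, adjusted p = 0.0397 for each). In all, 6 of the 15 tests had an adjusted p under 0.05. With arrays permuted only within suffixes, 0 of 15 did (lowest adjusted p = 0.0694 by exact permutation test). The smallest p this test can give is 0.0278 at 12 h, where each arrangement has a mirror image, and 0.0185 at 24 h. The number was also 0 without undifferentiated replicate 1, 2, 4 or 5 in turn and without suffix C. Permutation within suffixes and the loss of suffix C raise the smallest p possible, so neither count can show that the differences were lost. Without 12 h replicate 2 or 5 the number was 3.

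**Figure D2:**
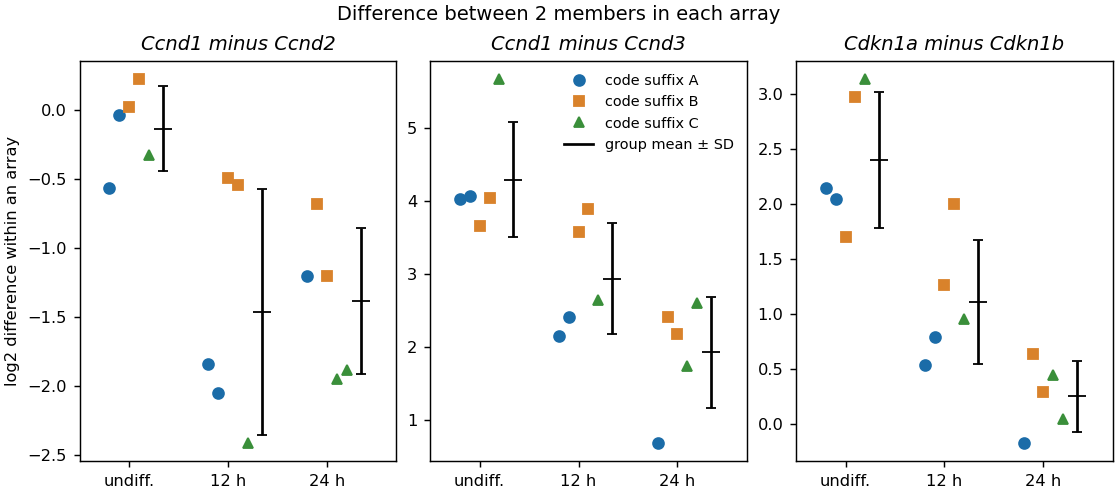
Log2 difference between 2 genes in each array (vertical axis) by group, for Ccnd1 minus Ccnd2, Ccnd1 minus Ccnd3 and Cdkn1a minus Cdkn1b; symbols give the title code suffix and black bars the mean ± SD (n = 5). In each panel the 24 h arrays lie below all undifferentiated arrays, and for Cdkn1a minus Cdkn1b the mean went from 2.40 to 0.25.

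Cdk4 (chr10:127063535-127067288, probe set 1422441_x_at), the catalytic partner of the D cyclins in most tissues, was not called at either time. Its log2 levels were 7.52, 7.52, 7.06, 7.24 and 7.65 in undifferentiated cells, 6.92, 7.04, 6.94, 6.94 and 7.23 at 12 h and 7.07, 7.52, 7.21, 7.45 and 7.23 at 24 h. At 12 h 4 of 5 arrays lay below all undifferentiated arrays and replicate 5 lay among them, and the 24 h arrays lay inside the undifferentiated range. The change was -0.38 ± 0.14 at 12 h (adjusted p = 0.111) and -0.10 ± 0.14 at 24 h (95% interval -0.40 to 0.19, adjusted p = 0.621), and after median centring the 24 h value was 0.04. At 12 h it was called with the suffix as a block (adjusted p = 0.0440), with code runs as a random block (adjusted p = 0.0429) and after quantile normalisation (-0.39, adjusted p = 0.0330), but not with the runs as a fixed block (adjusted p = 0.0778). Suffixes A, B and C gave -0.54, -0.21 and -0.42. Its other 2 probe sets changed by -0.23 and -0.40 at 12 h and by -0.020 and -0.19 at 24 h, none of them called.

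Cdk6 (chr5:3341004-3531008, probe set 1460291_at), the alternative partner of the D cyclins, had a single probe set, below the filter in the mean of all arrays. Its log2 levels were -0.52 to -0.16 in undifferentiated cells, -0.57 to -0.23 at 12 h and -0.60 to -0.08 at 24 h. The groups overlapped, with differences of -0.06 at 12 h and 0.05 at 24 h. Neither was called in the fit with no filter (adjusted p = 0.788 and 0.752).

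The kinase gene Cdk4 and the inhibitor genes Cdkn1a and Cdkn1b are shown with the 250 bases before their annotated starts, because Myc-family factors bind E-boxes and p53 is a well known activator of Cdkn1a. The sequences are from RefSeq (GRCm38.p6, plus strand), which gave windows for 6 of the 9 members; those of Ccnd1, Ccnd2 and Rb1 were not used here. Capitals mark matches to the E-box CACGTG, the SP1 motif GGGCGG or its reverse complement, and the p53 half-site, searched by its consensus on both strands. No match overlaps another. The E2F motifs TTTCCCGC and TTTGGCGC, the CRE motif TGACGTCA, the AP-1 motif TGACTCA, the ETS motif CCGGAAG, the FoxO motif TGTTTAC and the TATA motif TATAAA were searched on both strands too and had no match in the windows shown.
Cdk4, chr10:127063285-127063534: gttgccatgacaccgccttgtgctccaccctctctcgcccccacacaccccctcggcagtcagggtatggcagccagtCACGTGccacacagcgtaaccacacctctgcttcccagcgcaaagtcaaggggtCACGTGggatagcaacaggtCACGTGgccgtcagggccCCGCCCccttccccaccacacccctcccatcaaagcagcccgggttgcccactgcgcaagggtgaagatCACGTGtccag
Cdkn1a, upstream start, chr17:29090729-29090978: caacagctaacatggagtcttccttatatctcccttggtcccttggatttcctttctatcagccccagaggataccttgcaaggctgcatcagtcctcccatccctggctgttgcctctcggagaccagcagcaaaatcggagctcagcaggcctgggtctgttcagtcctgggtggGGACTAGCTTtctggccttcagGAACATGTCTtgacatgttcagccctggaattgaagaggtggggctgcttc
Cdkn1a, downstream start, chr17:29093519-29093768: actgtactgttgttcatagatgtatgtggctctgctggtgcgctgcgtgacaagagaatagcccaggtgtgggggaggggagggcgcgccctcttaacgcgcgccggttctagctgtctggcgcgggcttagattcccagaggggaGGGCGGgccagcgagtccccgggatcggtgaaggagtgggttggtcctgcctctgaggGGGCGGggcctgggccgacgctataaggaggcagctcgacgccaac
Cdkn1b, chr6:134920151-134920400: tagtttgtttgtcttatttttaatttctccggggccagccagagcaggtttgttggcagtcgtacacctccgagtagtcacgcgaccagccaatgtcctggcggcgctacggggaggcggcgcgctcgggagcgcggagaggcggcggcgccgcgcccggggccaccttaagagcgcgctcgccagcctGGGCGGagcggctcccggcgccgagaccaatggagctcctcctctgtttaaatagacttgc

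The Cdk4 window held 4 E-boxes and 1 SP1 motif. E-boxes occur in 6.02% of the 32851 windows of this length and SP1 motifs in 32.7%. The upstream Cdkn1a window held 2 p53 half-sites, at 73 to 64 and 51 to 42 bases before the start, a match found in 7.13% of windows. The downstream Cdkn1a window held 2 SP1 motifs and the Cdkn1b window held 1. Of the windows not shown, 1 of the 2 of Cdkn2c held 3 SP1 motifs, and that of Cdk6 held 1 E-box and 1 TATA motif. Both windows of Ccnd3 held SP1 motifs, and 1 of them also held a FoxO motif and the other an ETS motif. TATA, FoxO and ETS motifs occur in 12.4%, 3.17% and 6.91% of windows. A match describes the letters only.

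Cdkn1a (chr17:29090979-29100722, probe set 1424638_at) encodes p21, a CDK inhibitor that also helps to assemble cyclin D with its kinases, and it fell. Log2 levels were 6.71, 6.58, 6.12, 7.41 and 7.39 in undifferentiated cells. They were 5.19, 5.87, 6.20, 6.41 and 5.72 at 12 h and 5.13, 5.37, 5.37, 5.79 and 4.91 at 24 h. The highest 24 h array was below the lowest undifferentiated array, while 2 of the 5 arrays at 12 h were above it. Cdkn1a was 2.89-fold lower at 24 h (-1.53 ± 0.27, adjusted p = 0.00117) and 1.95-fold lower at 12 h (-0.96 ± 0.27, adjusted p = 0.0445). The second probe set changed by -2.70 ± 0.55 at 24 h (adjusted p = 0.00290) and by -1.76 ± 0.55 at 12 h (adjusted p = 0.0705, not called).

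At 24 h the fall of Cdkn1a was of like size within suffixes A, B and C, at -1.51, -1.40 and -2.04, and it was still called without suffix C. With the actin ratio as a covariate the change was -1.53 and missed the threshold (adjusted p = 0.102). At 12 h the values within A, B and C were -1.11, -0.46 and -1.67. The 12 h call was close to the threshold: it was lost without any of undifferentiated replicates 1, 2, 4 and 5, 12 h replicates 1, 2 and 5 and 24 h replicates 1, 2 and 3, with changes from -0.79 to -1.03 and adjusted p from 0.0524 to 0.115. It was also lost without suffix C (-0.79, adjusted p = 0.198), after median centring (adjusted p = 0.0551), with no filter (adjusted p = 0.0615), with 2 groups in the fit (adjusted p = 0.0839) and with the actin covariate (adjusted p = 0.135). The 12 h call was kept with the suffix as a block and with code runs as a random block. With the runs as a fixed block it was kept too (-0.96 ± 0.23, limma, adjusted p = 0.0216). The same held after quantile normalisation and without 12 h replicates 3 and 4.

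Cdkn1b (chr6:134920401-134925525, probe set 1434045_at) encodes p27, the inhibitor best known for holding cells out of the cycle when mitogens are withdrawn, and it rose at 24 h. Log2 levels were 4.56, 4.54, 4.41, 4.44 and 4.26 in undifferentiated cells. They were 4.65, 5.08, 4.94, 4.40 and 4.77 at 12 h and 5.30, 4.73, 5.08, 5.34 and 4.86 at 24 h. All 24 h arrays were above all undifferentiated arrays, and at 12 h replicate 4 alone lay among them. Cdkn1b was 1.54-fold higher at 24 h (0.62 ± 0.15, adjusted p = 0.00677), with values within suffixes A, B and C of 0.75, 0.48 and 0.84, and it differed by 0.33 ± 0.15 at 12 h (adjusted p = 0.199). The 24 h rise was not called without suffix C (0.55, adjusted p = 0.0710) or with the actin covariate (0.89, adjusted p = 0.0877). Its second probe set was below the filter, with group means of 0.20, 0.02 and -0.05.

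Cdkn2c (chr4:109660876-109666756, probe set 1416868_at), the INK4 inhibitor p18, was not called. Log2 levels were 5.00, 5.06, 5.21, 5.02 and 4.94 in undifferentiated cells, 4.49, 5.09, 4.91, 4.92 and 4.47 at 12 h and 4.88, 4.79, 5.12, 4.63 and 4.35 at 24 h. Undifferentiated arrays were tightly grouped (SD 0.10) and lay near the top of the range of both later groups (SD 0.28 and 0.29). The change was -0.27 ± 0.15 at 12 h (adjusted p = 0.308) and -0.29 ± 0.15 at 24 h (95% interval -0.62 to 0.036, adjusted p = 0.170). Among the other CDK inhibitors 4 were tested: Cdkn2d, which encodes p19-INK4d, fell at 24 h (-0.68 ± 0.16, adjusted p = 0.00646), while Cdkn1c (p57) differed by 1.30 ± 0.57 (adjusted p = 0.0995), Cdkn2a by -0.39 and Cdkn2b by -0.18, and 0 of 4 were called at 12 h.

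Rb1 (chr14:73192858-73325951, probe set 1417850_at), the substrate of the cyclin D kinases and repressor of E2F, rose at 24 h by a small amount. Log2 levels were 4.53, 4.57, 4.92, 4.70 and 4.93 in undifferentiated cells. They were 5.05, 5.45, 4.76, 4.78 and 5.43 at 12 h and 5.45, 4.86, 5.21, 5.36 and 5.29 at 24 h. At 24 h 4 of 5 arrays were above all undifferentiated arrays and replicate 2 was not. The change was 0.51 ± 0.16 at 24 h (1.42-fold, adjusted p = 0.0302) and 0.37 ± 0.16 at 12 h (adjusted p = 0.186; 0.58 and called at adjusted p = 0.0229 without 12 h replicates 3 and 4). Within suffixes A, B and C it was 0.90, 0.23 and 0.39 at 24 h.

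The 24 h call of Rb1 was lost without any of undifferentiated replicates 1, 2 and 4 and 24 h replicates 1, 3, 4 and 5, with changes from 0.45 to 0.51 and adjusted p from 0.0502 to 0.0719. It was also lost without suffix C (0.50, adjusted p = 0.115), with code runs as a fixed block (0.44, adjusted p = 0.0556) and with the actin covariate (0.29, adjusted p = 0.571).

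**Figure D3:**
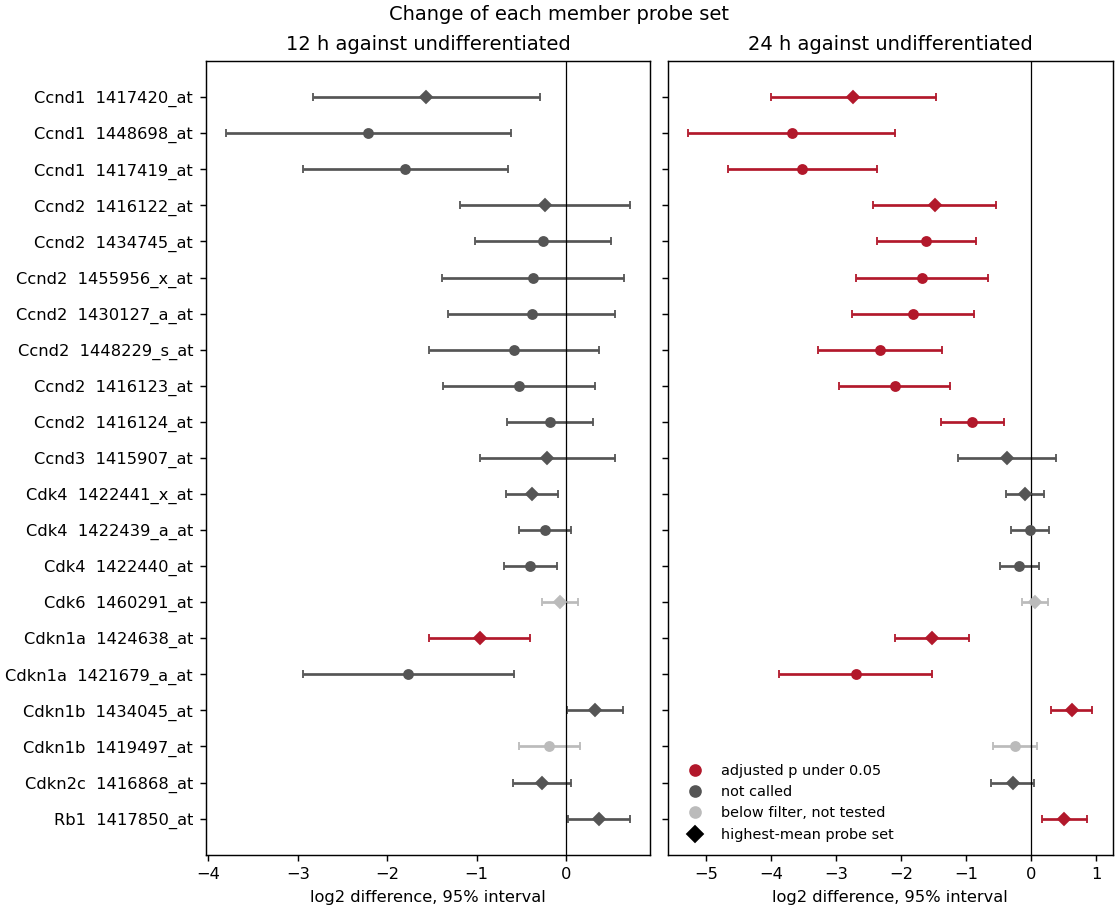
Log2 difference of each of the 21 member probe sets from undifferentiated cells (horizontal axis, with the 95% interval of the limma fit) at 12 h on the left and 24 h on the right; red marks an adjusted p under 0.05 and a diamond the highest-mean probe set of a gene. At 24 h all 3 probe sets of Ccnd1, all 7 of Ccnd2 and both of Cdkn1a are red and below 0, and at 12 h a single probe set of Cdkn1a is red.

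Between 12 h and 24 h 0 of the 8 members were called by limma, against 0.24% of all genes and 0.215% of all probe sets, and 8 of their 19 probe sets, all 7 of Ccnd2 and 1 of Ccnd1, had an unadjusted p under 0.05, against 13.9% of all probe sets. The probe sets of 1 gene are not independent. Ccnd2 differed by -1.26 ± 0.45 (adjusted p = 0.221), Ccnd1 by -1.18 ± 0.60 (adjusted p = 0.401), Cdkn1a by -0.56 ± 0.27 (adjusted p = 0.361) and Cdkn1b by 0.29 ± 0.15 (adjusted p = 0.401). Cdk4, at 0.28 ± 0.14 (adjusted p = 0.384), was the member whose 24 h value lay back toward the undifferentiated level.

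Arrays with consecutive title codes form 6 runs, of which 4 hold an undifferentiated and a 24 h array. From undifferentiated cells to 24 h, Ccnd1 changed by -3.92, -0.74, -2.12 and -3.93 in these runs, Ccnd2 by -2.75, -0.04, -0.70 and -2.37 and Cdkn1a by -1.45, -0.75, -2.04 and -2.49. Cdkn1b changed by 0.76, 0.32, 0.64 and 0.60 and Rb1 by 0.88, -0.05, 0.52 and 0.35. By the highest-mean probe sets, the run with undifferentiated replicate 3 had the smallest change for each of these 5 genes. In that run the other probe sets of Ccnd2 changed by -0.26 to -0.87 and those of Ccnd1 by -1.58 and -2.12. At 12 h, where 5 runs hold both groups, Ccnd1 changed by -3.30, -2.00, 0.60, 0.02 and -3.13 and Ccnd2 by -2.03, 0.01, 1.11, 0.78 and -1.04, so by these probe sets neither cyclin was lower in the runs with 12 h replicates 3 and 4. The other 2 probe sets of Ccnd1 gave 0.77 and 0.15 in the run with replicate 3 and -0.21 and -0.81 in that with replicate 4.

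**Figure D4:**
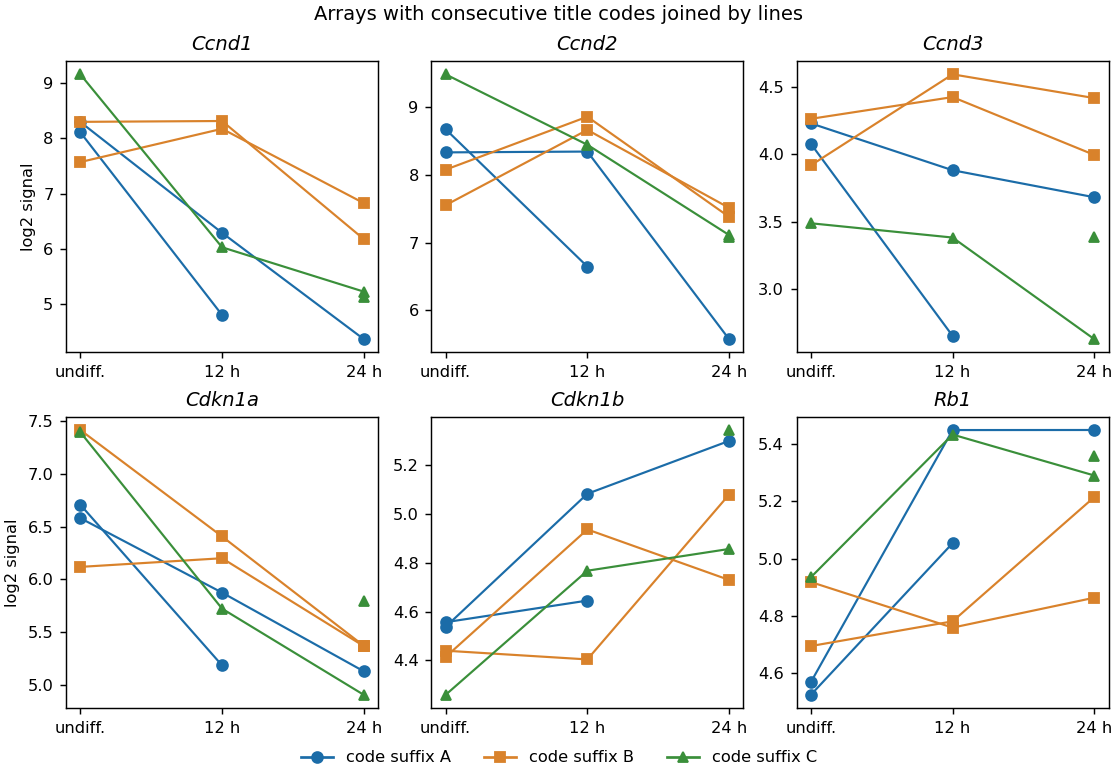
Log2 signal (vertical axis) of 6 members by group, with arrays of consecutive title codes joined by lines and coloured by code suffix; a lone point is an array with no neighbour in its run. Both suffix B lines of Ccnd1 and Ccnd2 are flat or rising from undifferentiated cells to 12 h and fall by 24 h, while the suffix A and C lines of Ccnd1 drop by 12 h.

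Downstream of the members, the cyclin E, cyclin A and CDK2 genes were lower at 24 h: 8 of 8 tested fell, with a median change of -1.52 against -0.060 for all genes. Cks1b, a CDK adaptor needed for p27 breakdown, had a log2 change of -1.71 ± 0.27 (adjusted p = 0.000727), cyclin E1 (Ccne1) of -1.34 ± 0.26 (adjusted p = 0.00198), cyclin A2 (Ccna2) of -1.91 ± 0.43 (adjusted p = 0.00498) and Cdk2 of -1.26 ± 0.29 (adjusted p = 0.00547). At 12 h Cks1b and Ccne1 had fallen, 2 of 8. With the suffix as a block 8 of 8 were called at 12 h, and without suffix C 0 of 8 at 12 h and 2 of 8 at 24 h, with medians of -0.88 and -1.24. Calls over all probe sets moved as well. At 12 h they numbered 751 in the main fit, 2101 with the suffix block and 101 without suffix C. At 24 h they numbered 3508 in the main fit and 1543 without suffix C.

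E2F target genes of DNA replication moved the same way. At 24 h 15 of 15 tested fell (median -2.12), among them the ribonucleotide reductase subunit Rrm1 (-1.53 ± 0.27, adjusted p = 0.00129), thymidine kinase Tk1 (-2.71 ± 0.49, adjusted p = 0.00140), the helicase subunit Mcm7 (-0.98 ± 0.20, adjusted p = 0.00302) and the loading factor Cdc6 (-2.15 ± 0.45, adjusted p = 0.00320). At 12 h 5 of 15 had fallen (median -1.55), and the number was 15 with the suffix as a block or without 12 h replicates 3 and 4. Over all tested probe sets 751 were called at 12 h in the main fit, and 2101 and 2505 in those settings. Without suffix C 0 of the E2F targets were called at 12 h and 2 at 24 h, with medians of -1.47 and -1.82. All called probe sets then numbered 101 and 1543, against 751 and 3508 in the main fit. Of the pocket proteins and E2F factors 4 of 7 fell at 24 h: E2f8, Rbl1 (p107), E2f6 and E2f1, with changes of -1.70 ± 0.30, -1.72 ± 0.35, -0.86 ± 0.18 and -1.11 ± 0.24 (adjusted p from 0.00124 to 0.00368). Rbl2 (p130), the relative of Rb1 that prevails in resting cells, differed by 0.19 ± 0.24 (adjusted p = 0.580). At 12 h 2 of 7, E2f8 and E2f1, had fallen.

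Genes known to respond to ERK signalling, the pathway through which growth factors raise Ccnd1, fell in 8 of 10 cases at 24 h (median -1.68) and in 1 of 10, Phlda1, at 12 h (median -1.11). At 12 h the number was 4 with the suffix as a block and 8 without 12 h replicates 3 and 4 (median -1.56). Those settings called 2101 and 2505 of all probe sets at 12 h, against 751 in the main fit. Etv4 and Etv5, ETS-family transcription factors, changed by -2.82 ± 0.39 and -2.64 ± 0.47, and the feedback inhibitors Spred2 and Dusp6 by -2.12 ± 0.35 and -3.87 ± 0.70 (adjusted p from 0.000296 to 0.00139). The immediate early genes Fos and Egr1 were not called (1.35 ± 0.79 and 0.21 ± 0.61). Without suffix C 4 of 10 were called at 24 h (median -1.37), and 1543 of all probe sets against 3508 in the main fit. With the actin covariate 0 genes of the cyclin, E2F target, pocket protein and ERK lists were called at 24 h, and their medians were -1.56, -2.47, -0.74 and -1.38.

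Of the genes known as p53 targets, 3 of 11 tested, not counting Cdkn1a, were called at 24 h, a share near the 30.6% of all genes. Those that fell were Phlda3 (-1.25 ± 0.30, adjusted p = 0.00648) and Plk2 (-1.15 ± 0.34, adjusted p = 0.0207), and Sesn1 rose (0.96 ± 0.30, adjusted p = 0.0268). The numbers higher and lower were 2 and 4 with the suffix as a block, 2 and 3 after quantile normalisation and 0 and 1 without suffix C. The p53 antagonist Mdm2 differed by -0.60 ± 0.23 (adjusted p = 0.0645). The list's median was -0.18, and 0 of 11 were called at 12 h. Among Myc, Max-partner and FoxO genes 2 of 6 rose at 24 h: Foxo1, a known activator of Cdkn1b, by 0.63 ± 0.14 (adjusted p = 0.00524) and Mxi1, an antagonist of Myc, by 1.22 ± 0.29 (adjusted p = 0.00668), while Myc differed by -0.24 ± 0.28 (adjusted p = 0.555).

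Genes of D cyclin and p27 assembly and breakdown were not called in any comparison, 0 of 8 by limma, with 24 h changes from -0.45 for Cdc37, a chaperone partner of CDK4, to 0.09 for Ddb1. The 3 genes of the CDK-activating kinase were not called either, with 24 h changes from -0.16 for Cdk7 to -0.08 for Mnat1. In each of the 9 pathway lists the number called between 12 h and 24 h was 0.

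**Figure D5:**
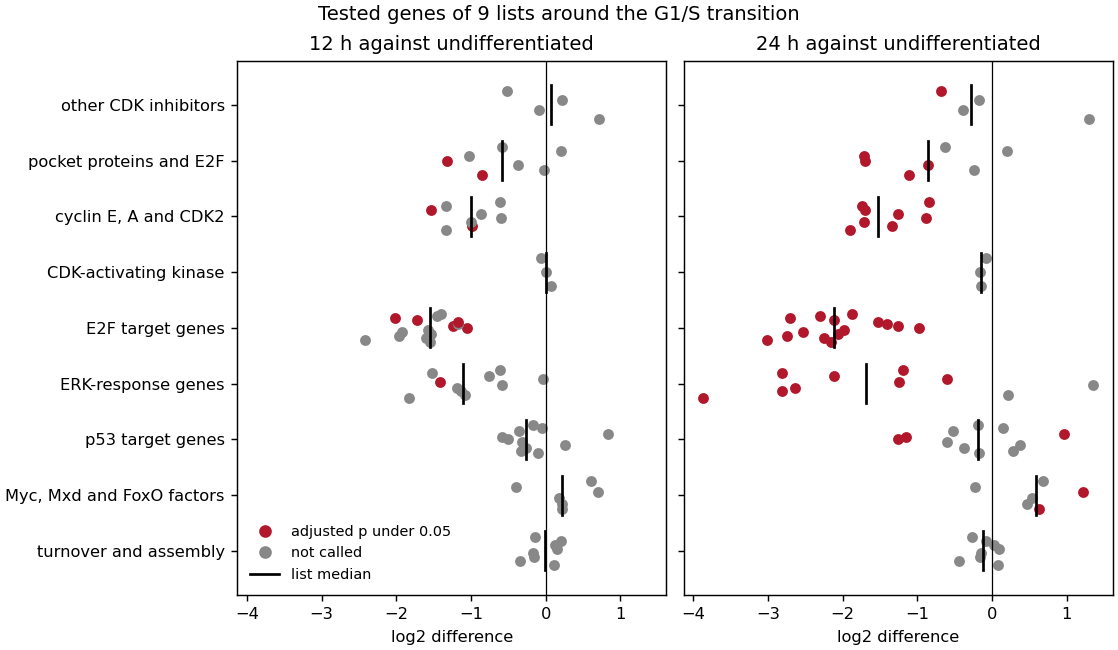
Log2 difference from undifferentiated cells (horizontal axis) of each tested gene in 9 lists (vertical axis) at 12 h on the left and 24 h on the right; red points have an adjusted p under 0.05 and black lines are list medians. At 24 h all 15 E2F target genes and all 8 cyclin E, A and CDK2 genes are red and below 0, while the turnover and CDK-activating kinase genes lie near 0.

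Across the 15 arrays, the genes whose log2 values followed each member most closely among 7784 genes were found by Pearson correlation, which here also reflects the 3 groups and the shared suffixes and array scale. For Ccnd1 these were the ERK-response genes Dusp6 (r = 0.983) and Spry1 (r = 0.976). For Ccnd2 they were Idh3a (0.906) and Chl1 (0.904), for Ccnd3 Vapb (0.961) and Usp5 (0.957) and for Cdk4 Ppp1r14b (0.844) and H2az1 (0.819). Cdkn1a was followed by Rgs10 (0.972) and Cdc34 (0.961), Cdkn1b by Rilpl2 (0.885) and Tagln3 (0.883), Cdkn2c by Cdc23 (0.882) and Itfg2 (0.877) and Rb1 by Rcbtb2 (0.947) and Armcx3 (0.922). Among the members themselves Ccnd1 went with Cdkn1a (r = 0.873) and Ccnd2 (0.853) and against Rb1 (-0.797) and Cdkn1b (-0.749), with lower values for Cdk4 (0.304) and Cdk6 (0.173).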

How the data were processed

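RNA of 15 samples was measured on Affymetrix arrays, and the deposited table holds a log10 value for each of 22690 probe sets and each array. MAS5 is the tool that the submitters' processing notes name; no settings or scaling are stated there. The log base was read from the hybridisation spike-ins, since their slope against log10 concentration was 1.07 ± 0.0655 (SD, 15 arrays). Multiplication by 3.32 turned the deposited values into log2 values, and no normalisation or pseudocount was added; the offset of the scale is unknown, and the number of arrays limits the precision.

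Gene names came from the platform annotation. Of 22626 probe sets other than controls, 20380 had 1 symbol, 691 had several and 1555 had none here. Probe sets with 1 symbol and a mean above the 40th percentile (0.512 on the log2 scale) were tested, 12556 of 7909 genes, in 1 limma fit (version 3.58.1, R 4.3.3) of all 15 arrays with a mean per group, trended moderated variances and Benjamini-Hochberg adjustment, called at an adjusted p under 0.05. The fit was checked on simulated data. Differences between members within arrays and RNA quality ratios were compared by exact permutation tests. All members were named whatever their result, with up to 4 called genes of each list by smallest p at 24 h and a few more chosen after their values were seen, and the 2 genes most correlated with each member. Members, lists and tests were chosen with earlier results of these data known. Alternatives changed the scaling, filter, probe set, variance model, blocks, labels and single arrays.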

Additional observations from a re-analysis of the deposited data

Results flagged for a closer look

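Ccnd2 had single arrays far from the rest of their group. In 12 h replicate 1 probe set 1416122_at was at 6.65 on the log2 scale, against 8.34 to 8.85 in the other 4 arrays of the group, probe set 1455956_x_at was at 5.93 against 7.75 to 8.36, and probe set 1430127_a_at was at 5.76 against 7.43 to 7.99. In 24 h replicate 1 probe set 1416122_at was at 5.57 against 7.08 to 7.51, and probe set 1455956_x_at was at 5.05 against 6.57 to 6.78. Both arrays carry code suffix A. These are 5 of 63 groups of 5 arrays examined over the 21 member probe sets, and chance flags about 1 in 20 such groups. The probe sets of Ccnd2 measure the same transcripts and are not independent.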

How the results depend on the processing

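At 24 h the count of 5 called members was moved by more than 1.5 times in 3 settings other than the removal of single arrays: it was 0 with groups from the file codes, 1 without suffix C and 0 with the actin covariate, where 0, 1543 and 9 of all probe sets were called (3508 in the fit reported; 2660 to 3951 without single arrays). The split of probe sets at 24 h was 1222 higher and 2286 lower, 2049 and 1946 after quantile normalisation and 1844 and 1687 after median centring. Without single arrays 3 (24 h replicate 1) to 5 members were called at 24 h, 0 to 2 (12 h replicate 4) at 12 h and 0 between the times.

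At 12 h the count of called members (1 as reported) was 2 after quantile normalisation, 3 with the suffix block, with the random block of runs and without 12 h replicates 3 and 4, and 0 after median centring, with no filter, with 2 groups in the fit, with file codes, without suffix C and with the actin covariate. Called probe sets at 12 h (751 as reported) numbered 1182 after quantile normalisation, 444 with 2 groups, 2101 with the suffix block, 2041 and 1744 with runs as a random and a fixed block, 0 with file codes, 2505 without 12 h replicates 3 and 4, 101 without suffix C and 133 with the actin covariate, and 167 (12 h replicate 2 left out) to 1230 (12 h replicate 3) without single arrays. Between 12 h and 24 h they numbered 27 as reported, 47 after quantile normalisation, 0 with 2 groups, with file codes, without 12 h replicates 3 and 4 and with the actin covariate, 307 with the suffix block, 311 with the random block, 1 with 12 h replicates 3 and 4 averaged, 45 without suffix C and 0 (24 h replicate 1) to 411 (12 h replicate 5) without single arrays. The causes were not tested.

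Of the 15 differences between members, 6 passed as reported and 10 after quantile normalisation. The number was 0 with permutation within the suffix block, with file codes and without suffix C. It was 0 to 6 without single arrays. Permutation within suffixes and the loss of suffix C raise the smallest p the test can give, so their counts cannot show that the differences were lost.

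Signs turned in changes that had not passed, apart from Cdkn1a (0.32) and Cdkn1a minus Cdkn1b (0.10) at 12 h with file codes. With file codes Ccnd2, Ccnd3 and Cdk4 were at 0.23, 0.014 and 0.17 at 12 h, Cdk4 at 0.15 at 24 h, and Cdk4, Cdkn1b and Rb1 at -0.014, -0.018 and -0.041 between the times. The differences Ccnd2 minus Ccnd3 and Cdk4 minus Cdk6 were then 0.22 and 0.32 at 12 h, Cdk4 minus Cdk6 was 0.15 at 24 h and -0.17 between the times, and Ccnd1 minus Ccnd3 was 0.0090 between the times. Between 12 h and 24 h Cdkn2c was 0.040 after quantile normalisation, 0.12 after median centring, 0.034 with the suffix block, 0.013 with 12 h replicates 3 and 4 averaged, 0.071 without them, 0.078 without suffix C and 0.12 with the actin covariate. Ccnd3 was 0.015, 0.32, 0.14 and 0.26 in the last 4 of these, and 0.21 at 12 h and 0.47 at 24 h with the actin covariate. Rb1 was -0.077 between the times without 12 h replicates 3 and 4, and Cdk4 was 0.044 at 24 h after median centring. Ccnd2 minus Ccnd3 at 12 h was 0.014 with those arrays averaged, 0.078 without them and 0.20 without suffix C. Without single arrays Ccnd2 at 12 h ran from -0.45 to 0.15, Ccnd3 from -0.41 to 0.075 at 12 h and from -0.45 to 0.082 between the times, Cdkn2c from -0.11 to 0.080 between the times, Ccnd1 minus Ccnd2 from -0.15 to 0.33 between the times and Ccnd2 minus Ccnd3 from -0.22 to 0.37 at 12 h. The labels give no replicate numbers, so the paired analysis used the runs of title codes, whose meaning is not stated; the random block gave a consensus correlation of 0.33 within runs (duplicateCorrelation).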
